A study of Mus musculus with 3 samples.

Results

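Twist1, Twist2, Prrx1, Zeb1, Zeb2 and Snai2 are the 6 mesenchymal transcription factors described here. They were taken by their gene names from a table of 50507 gene rows and followed singly and summed through early reprogramming of mouse embryonic fibroblasts (MEFs). All 6 had counts, and 4 of the 6 (Twist2, Prrx1, Zeb1 and Zeb2) passed a filter on low counts that 3013 genes of the table passed, while Twist1 and Snai2 did not and were added to the fits. The cells of every group were wild-type BL6 primary MEFs, reprogrammed at passage 2, that carried the lentivirus tet-STEMCCA, a doxycycline-inducible cassette of Oct4, Sox2, Klf4 and c-Myc (OSKM), together with rtTA, the activator that doxycycline switches on. Untransfected cells were collected on each day from before induction (Day00) to day 6 of reprogramming (Day06). Transfection came before induction, with 40 nM of siRNA: each of 33 genes was targeted by 3 pooled siRNAs, the nt control had a siRNA that targets no gene, the Mock control was mock transfected, and all were read on day 6. After induction the medium held 2 µg/mL doxycycline, 3 µM chiron, 50 µg/mL ascorbic acid, LIF and 0.25 µM of an inhibitor of Alk5, the TGF-beta receptor kinase. The 42 conditions had 3 libraries each, except Mock with 5 and siMtf1 with 2. The libraries are bulk RNA of whole wells in which only some cells reprogram, so that fewer cells of a type and less RNA per cell cannot be told apart.

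These factors are known to hold cells in a mesenchymal state. Twist1 and Twist2 are basic helix-loop-helix proteins that pair with E proteins and bind E-boxes, and Prrx1 is a homeobox protein of limb and craniofacial mesenchyme. Zeb1 and Zeb2 are large zinc finger and homeodomain repressors and Snai2 (Slug) is a zinc finger repressor of the Snail family, and these 3 bind E-boxes in the promoters of epithelial genes such as Cdh1, which encodes E-cadherin. Fibroblasts express several of the 6. During reprogramming they pass through a mesenchymal-to-epithelial transition (MET), the reverse of the transition these factors are known to drive.

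In mm10 coordinates of GENCODE vM21, 5 of the genes are placed as follows. Twist2 lies at chr1:91801461-91848028 on the plus strand and Prrx1 at chr1:163245119-163313710 on the minus strand. Twist1 lies at chr12:33957671-33959829 (plus), Zeb2 at chr2:44983632-45117395 (minus) and Snai2 at chr16:14705852-14709385 (plus). The counted reads mark transcript 3′ ends and each molecule gives 1 count, so that no correction for length applies. The last exon of Twist2 overlaps the antisense gene Gm29100, and whether the counting used strand is not given in the sources used here, so that some counts of Twist2 could belong to the partner. The antisense gene Zeb2os overlaps exons of Zeb2 but the last exon of none of its transcripts, and the last exon of at least 1 transcript overlaps the miRNA gene Mir5129 on the same strand. The promoter stretches of Twist2 and Prrx1 are shown because these are the members that passed the test after siWdr5. Both were taken from the RefSeq promoter table of GRCm38.p6 and end where the first annotated transcript begins, 5′ to 3′ on the strand of the gene, with CCAAT or its complement ATTGG in capitals. Of these 5 genes the table held 4, with Snai2 not among them.
Twist2, chr1:91801211-91801460, plus strand: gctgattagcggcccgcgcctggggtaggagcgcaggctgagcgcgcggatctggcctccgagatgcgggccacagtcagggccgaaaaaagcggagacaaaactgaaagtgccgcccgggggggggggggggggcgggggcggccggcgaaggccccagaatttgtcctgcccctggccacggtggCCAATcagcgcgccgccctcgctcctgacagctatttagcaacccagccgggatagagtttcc
Prrx1, chr1:163313711-163313900, minus strand: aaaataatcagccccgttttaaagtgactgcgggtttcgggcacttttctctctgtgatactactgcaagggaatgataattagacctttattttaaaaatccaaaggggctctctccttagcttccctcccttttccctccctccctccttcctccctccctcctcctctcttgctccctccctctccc
The search for E-boxes, CANNTG read on both strands, which includes CACCTG and CAGGTG, found 0 in these stretches and 0 in those of Twist1 and the outer Zeb2 start. Among all 32851 promoters of the table, 66.2% held CANNTG within 250 bases before the start, and 57.3% within the outer 190 bases that the Prrx1 stretch covers. CCAAT or ATTGG had 1 match in the Twist2 stretch, 63 bases before the start, 1 in that of Twist1, 2 in that of Zeb2 and 0 in that of Prrx1, against 33.8% of promoters with at least 1 within 250 bases and 26.7% within the 190 bases of the Prrx1 stretch. The base composition differed, with 68.8% G or C for Twist2 and 48.9% for Prrx1. A match or its lack is a description of these letters only.

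The 127 libraries used held 29656 to 235292 UMI counts, with a median of 73279. Further columns for 1 Mock and 1 siMtf1 library held 6403 and 7981 counts, were left out by the authors, and were left out here. None of the 131 pairs of replicates agreed within sampling noise. Labels give the replicate number, the sequenced pool. The study's text has the cells transfected in triplicate and calls the sequencing replicates independent. It does not say whether the cell preparations were separate, so that p-values measure the spread between these libraries. The siRNA targets were not shown to be lowered on day 6: over the 33 targets 369 counts were found where 392 were expected from the other transfected libraries, and 23 targets lay under their expectation. Wdr5 had 7 counts in its own libraries where 7.80 were expected, Brca1 4 where 3.84 were, and Bard1 0 where 1.40 were, which allows up to 3. Which siRNA a library received rests on its column name. The study also measured the mRNA of Wdr5, Brca1 and Bard1 in knockdown cells at an earlier day, in data not analysed here. Each of the 6 fibroblast markers had counts, and their summed level was 3531 to 4955 counts per 1000000 (CPM) in Day00 libraries and 752 to 838 in nt. Of other cell types, 4 of 5 endothelial and 3 of 4 skeletal muscle markers had any count, with Cdh5 and Myod1 at 0. The 6 macrophage markers summed to at most 15 counts in a library, their highest level of 124.1 to 226 CPM being on Day00. Each of 4 neural markers had counts, Tubb3 most with 650 over all libraries. They summed to 107.6 to 233 CPM on Day00 and 184 to 267 on Day06. The 6 pluripotent markers had counts too, with a sum of at most 160 CPM in a library.

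CPM here is the count over the library's total of the filtered genes after TMM scaling. Over all libraries the 6 genes gave 6290 counts, of which Prrx1 gave 50.4%, Twist2 20.6%, Zeb1 11.5%, Zeb2 9.35%, Snai2 4.39% and Twist1 3.74%. The summed level is therefore mostly that of Prrx1 and Twist2. Prrx1 was found in each of the 127 libraries and Twist2 in all but 1. Twist1 and Snai2 had a median of 1 count per library, and each was at 0 in 26 libraries. A fold change of either rests on few molecules.

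The time course asks how the factors move as untransfected cells begin to reprogram. Between Day00 and Day06, 4 of the 6 genes fell, Twist2, Prrx1, Zeb1 and Snai2, with log2 fold changes of -1.87, -1.29, -1.32 and -1.72, while Zeb2 and Twist1 did not pass the test. Of all genes 21.9% were called between these days. The sum of the 6 was 1654 CPM (SD 112, n = 3) on Day00 and 652 CPM (SD 67.2, n = 3) on Day06. As a slope over all 7 days, fitted with edgeR's quasi-likelihood test and adjusted by Benjamini-Hochberg over all genes, the same 4 genes were called lower, against 17.8% of all 3079 genes called in either direction. Leaving out replicate 1, 2 or 3 left 2 of the slopes called each time, that of Prrx1 among them in each case. The median slope of the 6 was -0.20 log2 units per day and that of all genes, which TMM scaling holds near 0, was 0.01. The per-library values by day are drawn in the plot of the 6 genes over days 0 to 6.

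**Figure D1:**
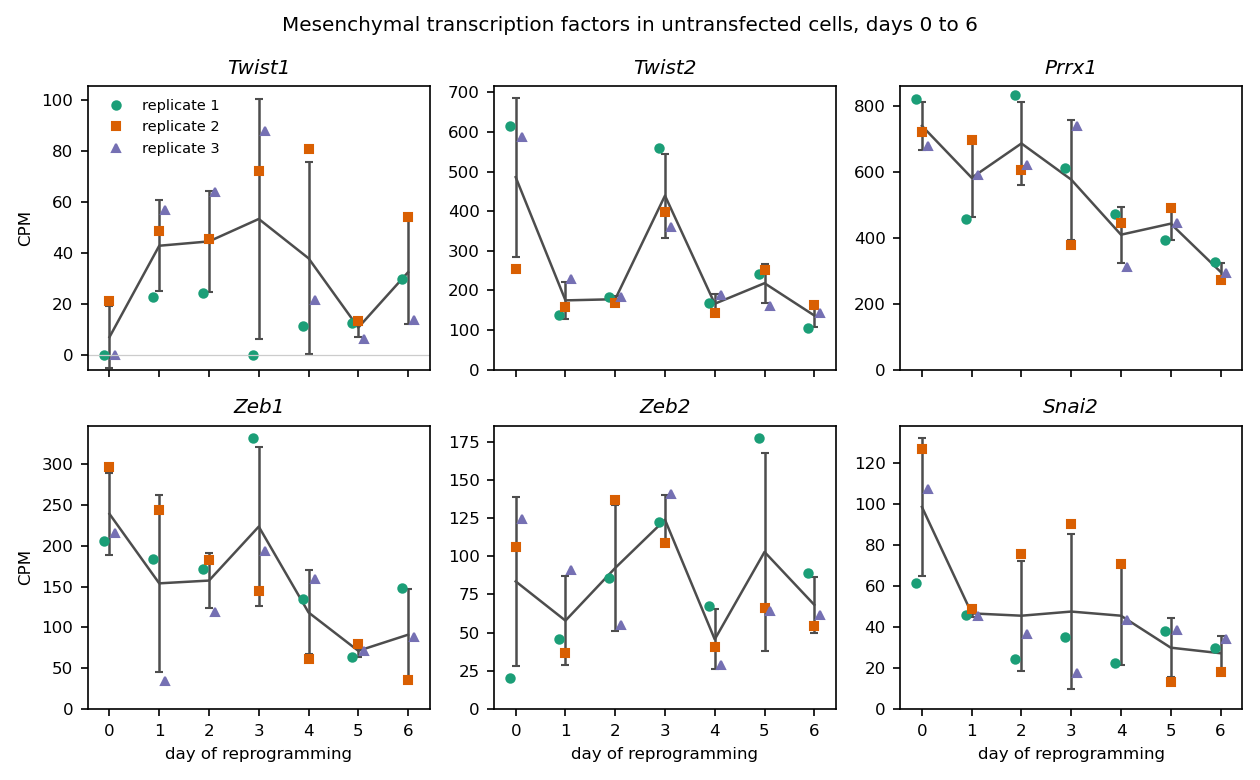
CPM of each gene (y axis, own scale per panel) against the day of reprogramming (x axis) in untransfected cells; points are single libraries, coloured by replicate, and the line joins the mean of 3 libraries with bars of 1 SD. Prrx1 and Zeb1 are lower in the last days, Twist2 is high on days 0 and 3 only, and Twist1 and Snai2 rest on few counts.

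Prrx1, the most counted member, was at 821, 720 and 679 CPM in the 3 Day00 libraries and at 326, 271 and 293 CPM on Day06. All Day06 libraries lay under all Day00 libraries. Means were 582, 687 and 577 CPM on days 1, 2 and 3, without a call on these days, and 409 CPM (SD 85.3, n = 3) on day 4. Against Day00, Prrx1 was called on days 4, 5 and 6, with log2 fold changes of -0.87, -0.72 and -1.29 ± 0.24 (SE) on Day06 (edgeR adjusted p 5.61e-06). Its slope was -0.19 ± 0.04 log2 units per day (edgeR adjusted p 0.000517). Of all genes 18.3%, 31.2% and 21.9% were called on days 4, 5 and 6. The day 5 call was lost without replicate 1 (-0.52, edgeR adjusted p 0.146), without replicate 2 (-0.65, edgeR adjusted p 0.0707) and without the low-count filter (0.114).

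Twist2, a bHLH factor of dermal and bone-forming mesenchyme, took another course. It was at 616, 254 and 588 CPM on Day00 and already at 138, 159 and 228 CPM on day 1, a fitted change of -1.47 ± 0.31 log2 units (edgeR adjusted p 0.00014). Each day 1 library lay under each Day00 library. Twist2 was the only member called on day 1 and on day 2, when 9.59% and 11.4% of all genes were called. On day 3 it stood at 560, 397 and 361 CPM, above every library of days 1, 2, 4, 5 and 6. Against the day before, a set of contrasts added after the daily values were seen, Twist2 rose by 1.26 ± 0.31 log2 units from day 2 to day 3 (edgeR adjusted p 0.00523) and fell by 1.34 ± 0.30 from day 3 to day 4 (edgeR adjusted p 0.000366). Of all genes 2.98% were called from day 2 to day 3, and 11.6% from day 3 to day 4. The rise was lost without replicate 1 (1.05, edgeR adjusted p 0.180) and without replicate 2 (1.19, edgeR adjusted p 0.0693), as well as without the low-count filter (0.0929), and limma on the deposited log2 values gave adjusted p-values of 0.401 for the rise and 0.0630 for the fall. The counts behind the day 3 level were 32, 22 and 41, and the summed fibroblast markers did not stand apart on that day, at 1784 to 2349 CPM against 1776 to 2154 on day 2. By day 6 Twist2 was at 104, 163 and 143 CPM, a log2 fold change of -1.87 ± 0.31 against Day00 (edgeR adjusted p 2.37e-07). Twist2 was also called against Day00 on days 4 and 5, at -1.59 and -1.29 (edgeR adjusted p 2.61e-06 and 9.67e-05). The day 5 call was lost under 1 of 9 alternatives. Under limma the calls of days 1 and 2 were lost (adjusted p 0.179 and 0.0701) and that of day 6 was not.

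Zeb1 was at 205, 296 and 215 CPM on Day00 and at 148, 36.1 and 88.6 CPM on Day06. The groups did not overlap, and the log2 fold change was -1.32 ± 0.44 (edgeR adjusted p 0.0171). On day 5 its 3 libraries held 63.4 to 79.6 CPM, -1.70 ± 0.45 against Day00 (edgeR adjusted p 0.00121). On day 3 its mean was 223 CPM (SD 97.4, n = 3), within the range of the Day00 libraries. The Day06 call was lost without replicate 2 (-0.89, edgeR adjusted p 0.254), without replicate 3 (edgeR adjusted p 0.0761), without the replicate block (0.0627), without the low-count filter (0.114) and under limma (0.137). Snai2 was at 61.6, 127 and 108 CPM on Day00 from 3, 6 and 13 counts, and at 29.7, 18.1 and 34.1 CPM on Day06 from 2, 1 and 5 counts. Its log2 fold change of -1.72 ± 0.67 had an edgeR adjusted p of 0.0499, and the call was lost without replicate 1, 2 or 3 (edgeR adjusted p 0.111, 0.307 and 0.237). Snai2 was also called on day 5, at -1.60 (edgeR adjusted p 0.0429), a call lost under 6 of 9 alternatives.

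Zeb2 was at 20.5, 106 and 124.1 CPM on Day00 and at 89.0, 54.2 and 61.4 CPM on Day06, with groups that overlapped, and its log2 fold change was -0.47 with a 95% interval of -1.54 to 0.60. Its single call in the course was a fall by 1.52 ± 0.53 log2 units from day 3 (122, 108 and 141 CPM) to day 4 (67.3, 40.5 and 29.0 CPM), with an edgeR adjusted p of 0.0393. That call was lost without replicate 1, 2 or 3 (edgeR adjusted p 0.0644, 0.176 and 0.412) and without the replicate block (0.0649). Twist1, the other Twist factor, had 1 count over the 3 Day00 libraries and 10, 12 and 14 counts over those of days 1, 2 and 3, and it was called higher on day 3 alone (edgeR adjusted p 0.030), when 10.8% of all genes were called. By pooled counts that day 3 level was 13.4-fold that of Day00, with an exact 95% counting interval of 2.04 to 567, and 1 of the 3 day 3 libraries had 0 counts of Twist1. The call was lost without replicate 1, 2 or 3, and without replicate 3 the log2 fold change was 1.53 (edgeR adjusted p 0.690). Counting intervals here cover counting error only.

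The gene lists around the factors were read in the same slope, with 17.8% of all genes called. Of 16 mesenchymal genes 11 were called, each with a falling slope, and the list had a median of -0.26 log2 units per day. Among them, Postn (periostin, a matrix protein) changed by -0.99, Tagln and Acta2 (smooth muscle contractile genes) by -0.84 each and Col5a2 (a fibrillar collagen) by -0.46. Of 14 epithelial genes with counts 5 were called, each with a rising slope, led by Epcam at 1.02, Cdh1 at 0.78, Krt8 at 0.65 and Krt18 at 0.52 log2 units per day (edgeR adjusted p 4.12e-05, 0.000491, 0.00802 and 0.0409). DESeq2 called 3 of the 14 and limma 2 of the 10 it tested. Epcam is an adhesion molecule of epithelia and of pluripotent cells, Cdh1 is a known target of repression by Zeb and Snail factors, and Krt8 and Krt18 are the keratin pair of simple epithelia. Of 15 related transcription factors 1 was called, a share under that of all genes, Prrx2, the closest relative of Prrx1, which fell by 0.26 per day (edgeR adjusted p 0.000105). Only Prrx2 and Runx1 of these passed the low-count filter, and few counts limit the calls of the rest. Of 13 E proteins, Id inhibitors and corepressors, several of them also under that filter, 1 was called, again under that share. It was the inhibitor Id2, which fell by 0.18 per day (edgeR adjusted p 0.00243). In the TGF-beta pathway, the feedback regulator Skil fell by 0.40 per day and the signal carrier Smad3 rose by 0.31 per day, a call lost with RLE size factors and under DESeq2. The summed fibroblast markers fell over the same days, from 3531 to 4955 CPM on Day00 to 1513 to 2122 CPM on Day06. The summed macrophage markers went from 124.1 to 226 CPM on Day00 to 18.1 to 89.0 CPM on Day06, or at most 15 and 6 counts in a library, and 1 of 6, Lyz2 (lysozyme), was called lower on Day06, by -1.87 log2 units (edgeR adjusted p 0.0299), and 0 in the slope. The endothelial markers summed to at most 20.5 CPM on Day00 and 14.8 to 34.1 CPM on Day06, and 1 of the 4 tested, the receptor gene Tek, had a rising slope of 0.49 per day (edgeR adjusted p 0.0369). The part of these cell types in the fall of the members was not tested.

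Transfection itself was examined next, because every siRNA is read against nt. The sum of the 6 genes was 428 CPM (SD 25.2, n = 3) in nt and 652 CPM (SD 67.2, n = 3) in untransfected Day06 cells, and the nt libraries lay under all Day06 libraries. The summed fibroblast markers were also lower, 752 to 838 CPM in nt against 1513 to 2122 on Day06, and 6 of 16 mesenchymal genes were called lower in nt, and the part of either in the difference was not tested. No single member was called: under edgeR 0 of 6 passed, 0 had an unadjusted p under 0.05, and DESeq2 and limma on the deposited log2 values also called 0, with 3 and 2 at an unadjusted p under 0.05. Of all genes 26% were called in that comparison. The 5 Mock libraries are columns with repeated names, 2 in each of replicates 1 and 2 and 1 in replicate 3. The pairs within a replicate differed by more than sampling noise, but the labels do not say whether they were separate transfections, and the block for the replicate number is all that ties them in the fits. In these 5 the sum ran from 418 to 836 CPM, with a median of 546, and 4 of 5 lay above the nt range of 400.3 to 449.6. Again 0 of 6 members were called under edgeR, with 1 at an unadjusted p under 0.05 (Twist1), and 0 under DESeq2 and limma, with 1 and 2 at an unadjusted p under 0.05, against 1.46% of all genes. Twist1 had 1 count over the 3 nt libraries and 9 over the 5 Mock libraries, 10.7-fold by pooled counts with an interval of 1.48 to 469. In the order of the 42 conditions from the highest mean, nt stood 42nd for Twist1, 36th for Twist2 and Prrx1 and 35th for Zeb2, but 30th for Snai2 and 16th for Zeb1.

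Over the 42 conditions the summed level ran from 206 CPM (SD 102, n = 3) in siPou5f1 to 1654 CPM in Day00, with nt 37th from the top. The plot of summed CPM in every library shows this order. The early days took 4 of the 5 highest places, and siWdr5, at 1193 CPM (SD 184, n = 3), stood 4th, between Day02 and Day01. The next siRNAs were siBard1 at 989 CPM (SD 348, n = 3), siCdk1 at 881 (SD 52.4, n = 3), siBrca1 at 876 (SD 190, n = 3) and siEp300 at 836 (SD 227, n = 3). Of the 41 gaps between neighbours in the order, 1 exceeded the larger SD of its pair, that between Day03 and Day02, so that neighbouring ranks are not told apart. The mean was above that of nt in 28 of 33 siRNAs, and all libraries lay above all nt libraries in 21. All are read against the same 3 nt libraries.

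**Figure D2:**
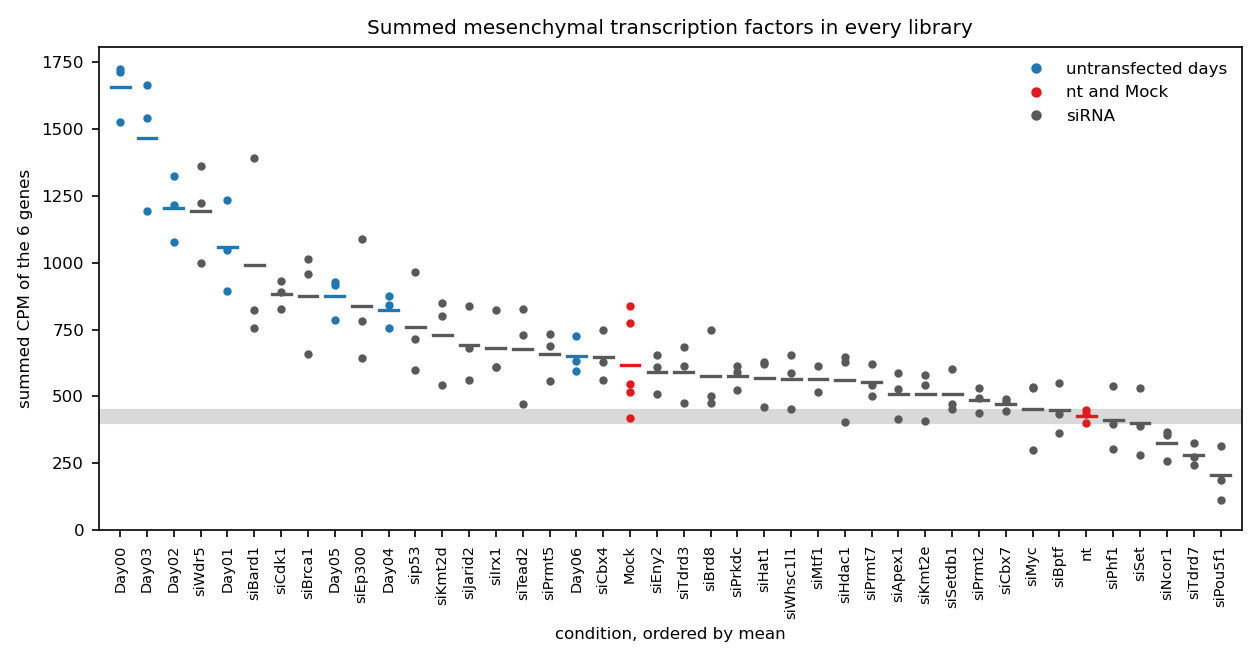
Summed CPM of the 6 genes (y axis) in each library of the 42 conditions (x axis), ordered by mean; points are libraries, short lines means, colours mark untransfected days, nt and Mock, and siRNAs, and the grey band is the range of the 3 nt libraries, 400.3 to 449.6 CPM. Day00 to Day03 and siWdr5 are highest, siPou5f1 is lowest, and most siRNA means lie above the nt band.

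Of the 33 siRNAs, siWdr5 had the highest summed level, its target being a subunit shared by histone H3 lysine 4 methyltransferase complexes. Prrx1 and Twist2 rose, and each of the other members had a positive fitted change that did not pass the test. The study itself had singled out Zeb1 and Twist2 from these libraries, with siWdr5, siBrca1 and siBard1 grouped together, so that their direction here is not independent evidence. Prrx1 was at 792, 697 and 541 CPM in siWdr5 and at 183, 239 and 212 CPM in nt. The siWdr5 libraries all lay far above those of nt, the difference being 1.62 ± 0.26 log2 units (edgeR adjusted p 6.35e-08). For Prrx1 all libraries lay above all nt libraries in 15 of the 33 siRNAs, siBard1 and siBrca1 among them. The siWdr5 mean of 677 CPM (SD 127, n = 3) was close to that of Day02. Twist2 was at 185, 256 and 199 CPM against 99.9, 59.8 and 81.7 CPM in nt, a rise of 1.36 ± 0.40 log2 units (edgeR adjusted p 0.00541). These 2 of 6 calls stand beside 26.7% of all genes called in siWdr5. The call of Twist2 was lost without replicate 2 (1.02, edgeR adjusted p 0.130), without the low-count filter (edgeR adjusted p 0.0892) and under limma on the deposited log2 values (1.23, adjusted p 0.152), and that of Prrx1 was kept under each alternative tried.

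Zeb1 in siWdr5 was at 79.2, 142 and 152 CPM, within or just above the range of nt, which held 150, 59.8 and 16.3 CPM. Its log2 fold change was 1.01 with a 95% interval of -0.03 to 2.04 (edgeR adjusted p 0.137), and without replicate 1 it was 2.12 (edgeR adjusted p 0.0118). Zeb2 was at 132, 99.5 and 57.0 CPM against 16.7, 44.9 and 57.2, a log2 fold change of 1.05 (interval -0.10 to 2.21). Snai2 had 14 counts in siWdr5, 8 of them in replicate 1, against 5 in nt. Twist1 had 6 counts, 5 of them in replicate 1, against 1. By pooled counts the sum of the 6 was 2.78-fold that of nt, with an exact 95% counting interval of 2.21 to 3.50. The median fitted log2 fold change of the 6 was 1.41. That of all genes, which TMM scaling holds near 0, was 0.003, and 0.168 with RLE size factors. The summed fibroblast markers moved with these genes, at 2879 to 3351 CPM in siWdr5 against 752 to 838 in nt, and their part in the result was not tested.

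**Figure D3:**
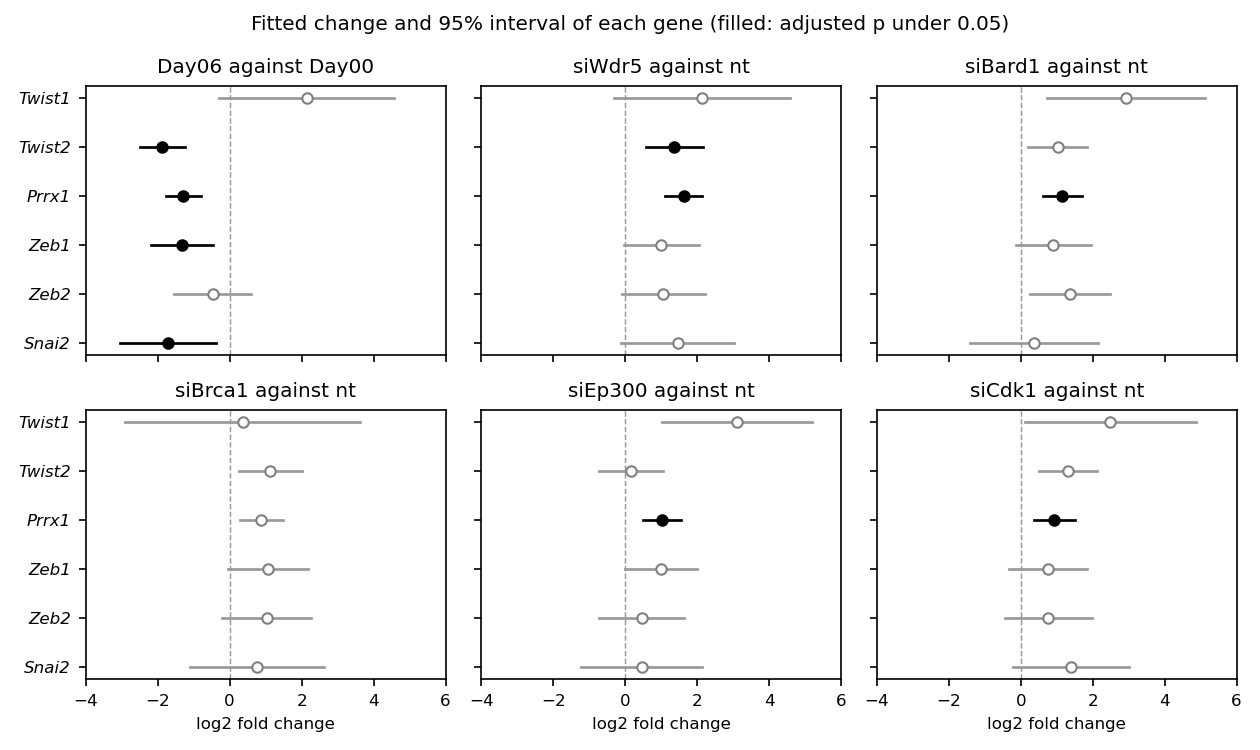
Fitted log2 fold change (x axis) of each gene (y axis) with its 95% interval from the edgeR fit, for Day06 against Day00 and for 5 siRNAs against nt; filled points passed an adjusted p of 0.05. Prrx1 is filled in 5 of the 6 panels, Twist2 in 2, and most other intervals against nt include 0.

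Bard1 and Brca1 encode the partners of a ubiquitin ligase of DNA repair. After siBard1, Prrx1 was at 751, 394 and 368 CPM, a rise of 1.16 ± 0.27 log2 units against nt (edgeR adjusted p 0.00112). Each library lay above the nt libraries, with replicate 1 highest. The other members did not pass, Zeb2 at 144, 188 and 62.5 CPM (log2 fold change 1.38, edgeR adjusted p 0.101) and Twist2 at 287, 103 and 132 CPM (1.02, edgeR adjusted p 0.102) among them. Twist1 had 11 counts, 2 to 6 per library, where nt had 1 (edgeR adjusted p 0.074). The count of 1 of 6 members compares with 10% of all genes called. Without replicate 1 the change of Prrx1 was 0.77 (edgeR adjusted p 0.156), and limma gave an adjusted p of 0.137. The summed fibroblast markers were at 1319 to 1964 CPM in siBard1 and 1163 to 1849 in siBrca1, against 752 to 838 in nt, and their part in these levels was not tested.

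After siBrca1 no member was called: 0 of 6 passed under edgeR, DESeq2 or limma, with 2, 2 and 4 at an unadjusted p under 0.05, against 4.05% of all genes. Prrx1 was at 455, 342 and 389 CPM, above all nt libraries, with a log2 fold change of 0.88 ± 0.30 and an edgeR adjusted p of 0.0675, and it passed with RLE size factors in place of TMM (0.93, edgeR adjusted p 0.0481). Twist2 was at 207, 296 and 94.2 CPM (1.13, edgeR adjusted p 0.136) and Zeb1 at 207, 160 and 70.7 CPM (1.07, edgeR adjusted p 0.346). The siBrca1 libraries held 47592 to 91364 counts and those of siWdr5 79094 to 118614. Zeb2 and Snai2 had fitted changes of 1.03 and 0.76 that did not pass, and Twist1 had 1 count in siBrca1 and 1 in nt.

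A call in siWdr5 and none in siBrca1 does not show that the siRNAs differ, so siWdr5 was set directly against both. Prrx1 was 0.74 ± 0.25 log2 units higher in siWdr5 than in siBrca1 (edgeR adjusted p 0.0348), with all siWdr5 libraries above all siBrca1 libraries, and 1 of 6 members was called, against 9.81% of all genes. The call was lost without replicate 1, 2 or 3 (edgeR adjusted p 0.141, 0.311 and 0.0649), without the replicate block (0.120), without the low-count filter (0.454) and under limma (0.21 log2 units, adjusted p 0.933). Twist2 differed by 0.23 log2 units, with an interval of -0.50 to 0.96, and Zeb1 by -0.06 (interval -1.03 to 0.91). Against siBard1, 0 of 6 members were called under edgeR, DESeq2 or limma, with 1, 1 and 0 at an unadjusted p under 0.05, where 8.16% of all genes were called under edgeR. Prrx1 there was 0.47 log2 units higher in siWdr5, with an interval of 0.02 to 0.91 and an edgeR adjusted p of 0.20. The other members did not pass, and equal levels are not shown.

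Among the other 30 siRNAs, 2 of 180 member tests were called, both for Prrx1, against 1.4% of all gene tests together. After siEp300, which is directed against a histone acetyltransferase, Prrx1 was at 686, 369 and 344 CPM (log2 fold change 1.03 ± 0.27, edgeR adjusted p 0.00635). Twist2 did not follow, at 57.2, 184 and 63.3 CPM, with a fitted change of 0.16, while Twist1 had 16 counts against 1 in nt (edgeR adjusted p 0.0574, and 0.0468 with RLE size factors). After siCdk1, directed against the kinase of mitotic entry, Prrx1 was at 365, 405 and 445 CPM (0.93 ± 0.28, edgeR adjusted p 0.0419) and Twist2 at 266, 249 and 131 CPM (log2 fold change 1.31, edgeR adjusted p 0.0526, and 0.0345 with RLE size factors). In both, all 3 libraries lay above all nt libraries for Prrx1, as was so in 15 of the 33 siRNAs. The summed fibroblast markers were at 908 to 2087 CPM in siEp300 and 1444 to 2011 in siCdk1, against 752 to 838 in nt, and their part was not tested. The call in siEp300 was lost without replicate 1 (0.66, edgeR adjusted p 0.334), and that in siCdk1 without replicate 1, 2 or 3 (edgeR adjusted p 0.145, 0.116 and 0.392) and without the replicate block (0.158). Neither passed without the low-count filter (edgeR adjusted p 0.117 and 0.609) or under limma (0.914 and 0.577). The heat map of fitted changes shows the remaining siRNAs without a call, and the row of Twist1 is positive in each of the 33, read against a single count in nt.

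**Figure D4:**
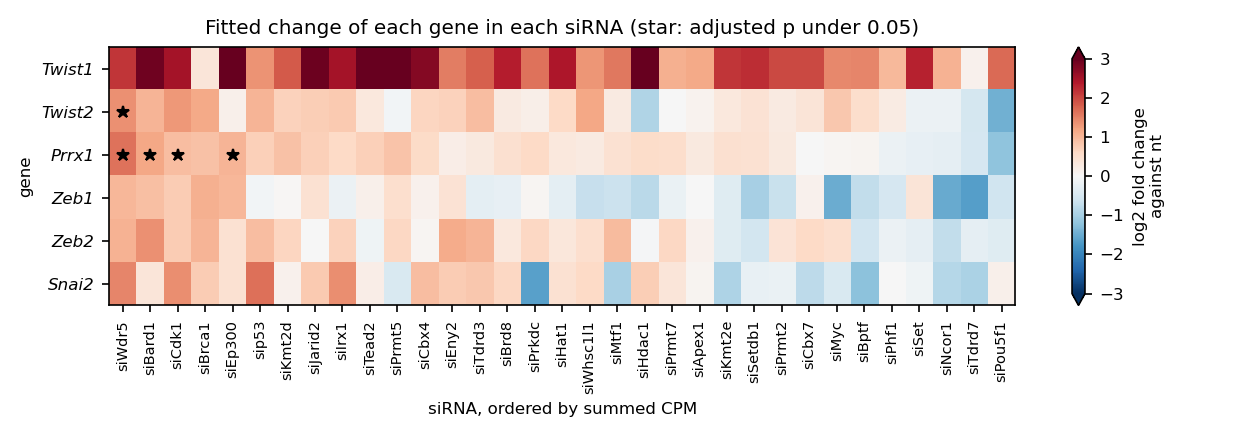
Heat map of the fitted log2 fold change against nt (colour) of each gene (rows) in the 33 siRNAs (columns, ordered by summed CPM); stars mark an adjusted p under 0.05. Stars fall on Prrx1 in siWdr5, siBard1, siCdk1 and siEp300 and on Twist2 in siWdr5, and the row of Twist1 rests on 1 count in nt.

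At the low end, siPou5f1, directed against a gene that the cassette also encodes, had 41 counts of the 6 genes over 3 libraries. Replicate 3 held 28 of the 41, and the sum was at 113, 189 and 315 CPM, under the nt range of 400.3 to 449.6. These libraries also differed more from one another than those of any other condition, the chi-square divided by the number of genes lying between 3.39 and 5.68 for their 3 pairs. Prrx1 was at 45.0, 71.0 and 123.9 CPM, under all nt libraries, with a log2 fold change of -1.22 ± 0.41 and an edgeR adjusted p of 0.0555, and Twist2 at 45.0, 23.7 and 22.5 CPM (-1.43, edgeR adjusted p 0.224). Read against nt and Mock together, with each Mock column counted as a library, both passed, Prrx1 at -1.34 (edgeR adjusted p 0.0096) and Twist2 at -1.85 (edgeR adjusted p 0.0296). Zeb1, Zeb2 and Snai2 were at 0 in 1, 1 and 2 of the 3 siPou5f1 libraries. The summed fibroblast markers were also low there, 518 to 563 CPM. In siTdrd7 the sum was 282 CPM (SD 42.4, n = 3) and in siNcor1 328 CPM (SD 58.7, n = 3), and Zeb1 had 4 counts in each where nt had 15, and neither had a call under edgeR, DESeq2 or limma (0, 0 and 0 members at an unadjusted p under 0.05 in siNcor1, and 1, 1 and 0 in siTdrd7). Of all genes 5.63% were called in siPou5f1, 4.24% in siNcor1 and 0.227% in siTdrd7. Zeb2 was highest in siBard1 and lowest in siPou5f1, Zeb1 highest on Day00 and lowest in siMyc, and Snai2 highest on Day00 and lowest in siPrkdc. Twist1 was highest in siHdac1, at 80.4 CPM with an SD of 71.4. For Twist1, Zeb1, Zeb2 and Snai2 none of the 41 gaps between neighbouring conditions exceeded the larger SD. For Twist2 1 did, between Day03 and Day05, and for Prrx1 1 did, between siTdrd7 and siPou5f1.

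The lists around the factors were read in the same 3 knockdowns. Of the 16 mesenchymal genes 11 were higher in siWdr5, 7 in siBard1 and 4 in siBrca1, which are all the calls of the list. Its medians were 1.93, 1.07 and 1.13 log2 units, and the medians of all genes, which TMM scaling holds near 0, were within 0.02 of 0. Limma on the deposited log2 values called 4, 2 and 1 of them. Of all genes 26.7%, 10% and 4.05% were called in siWdr5, siBard1 and siBrca1, against which the next lists are to be read. In siWdr5 the largest were Tagln at 3.24, Col1a1 (type I collagen) at 2.67, Cdh11 (a mesenchymal cadherin) at 2.47 and Acta2 at 2.19. Of 17 related transcription factors 2, 2 and 1 were called higher, and only Prrx2 and Runx1 of the 17 passed the low-count filter. Prrx2 was higher in all 3, by 2.14, 2.18 and 2.06 in siWdr5, siBard1 and siBrca1, and Runx2, a bone-forming factor, in siWdr5 and siBard1. Of the 13 partners and inhibitors 3, 2 and 1 were called higher. Tcf4, an E protein and so a dimer partner of the Twist factors, was higher in all 3, by 1.62, 1.49 and 1.50 log2 units. In siWdr5 limma called 1 of the 9 related factors and 2 of the 13 partners it tested. Id3 and Id1, which keep E proteins from DNA, were higher in siWdr5 by 2.08 and 1.18, and Id1 by 1.78 in siBard1. Of 14 genes of the TGF-beta pathway 2 were called in siWdr5, where the ligand Tgfb2 (2.25) and the co-receptor Tgfbr3 (3.50) were higher. Only Tgfb2, Smad4 and Ltbp1 of the 14 passed the low-count filter. Of the 18 epithelial genes tested, all of them under the low-count filter, edgeR called 0 in each of siWdr5, siBard1 and siBrca1, with 3, 1 and 0 at an unadjusted p under 0.05. DESeq2 and limma also called 0 in each, with 1, 1 and 0 under DESeq2 and 0, 1 and 0 among the 10 genes that limma tested. These comparisons share the nt libraries, and the study itself described fibroblast genes in these libraries. Several of the genes named here were themselves called lower in nt than in untransfected Day06 cells. There Runx2 changed by -3.46, Tgfbr3 by -2.90, Acta2 by -1.67, Tgfb2 by -1.57 and Cdh11 by -1.55 log2 units. Id3 changed by -1.44, Col1a1 by -1.39 and Tcf4 by -0.996, while Tagln, Prrx2 and Id1 had no call. The part of the lower nt levels in the rises against nt was not tested.

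How closely the members moved together was described by correlating log2 mean CPM plus 1 over the 42 conditions. The conditions share libraries' depth and the 7 days, so these are descriptions. Prrx1 went with the sum of the other 5 at r = 0.84, Zeb1 at 0.74, Twist2 at 0.74, Zeb2 at 0.69, Snai2 at 0.63 and Twist1 at 0.29. The closest pair was Twist2 and Prrx1 (r = 0.73), followed by Prrx1 and Zeb1 (0.71), and the loosest was Twist1 and Twist2 (0.02). Twist1 thus stood outside the common course, with a median of 1 count per library over the 127 libraries.

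Among 3009 other genes past the low-count filter, the 5 whose levels were most like the sum were Sparc (r = 0.89), Jak1 (0.88), Pdpn (0.87), Wdr1 (0.86) and Vcan (0.86). Sparc is a matricellular protein, Jak1 a tyrosine kinase of cytokine receptors, Pdpn (podoplanin) a surface glycoprotein, Wdr1 an actin-disassembly cofactor and Vcan (versican) a matrix proteoglycan. Sparc was at 3261 CPM on Day00, 1037 on Day06, 413 in nt, 1698 in siWdr5 and 331 in siPou5f1. Within the 7 days alone Sparc had r = 0.80 and Jak1 0.48, and within the 35 transfected conditions 0.84 and 0.87. Without siPou5f1 and Day00, the conditions farthest from the median, the 5 values were 0.80 to 0.88. The summed epithelial list went the other way at r = -0.57 over all conditions, and -0.34 within the transfected ones.

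**Figure D5:**
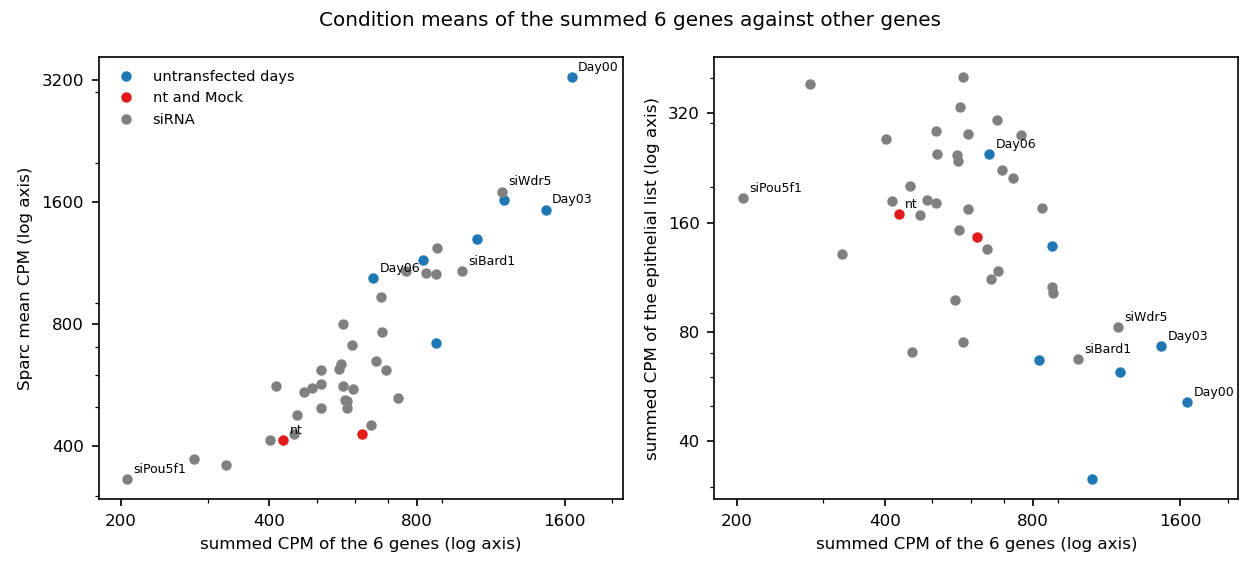
Mean CPM of Sparc (left, y axis) and summed CPM of the 18 epithelial genes (right, y axis) against summed CPM of the 6 genes (x axis), all on log axes; each point is 1 of the 42 conditions, coloured as untransfected days, nt and Mock, or siRNAs. Sparc rises with the 6 genes (r = 0.89) and the epithelial sum falls with a wide spread (r = -0.57).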

How the data were processed

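Poly(A) RNA of each well was read by CEL-Seq2, which tags molecules at their 3′ ends with a barcode and a unique molecular identifier (UMI). The authors mapped reads to mm10 with Bowtie2, removed UMI duplicates with the CEL-Seq2 pipeline and matched them to GENCODE vM13 transcripts, and deposited raw counts for 129 libraries of 3 sequenced pools. They also deposited log2 values for 10568 genes, log2 CPM after scater and scran normalization with the batch regressed, from which 2 libraries of low quality were removed; those 2 were left out here. Conditions were read from the library names, and the pool gave the replicate number. A Mock column without a number of its own was matched between tables by its profile (r = 0.915 against 0.0265 for the other candidate).

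Counts were fitted with edgeR 4.0.16 (glmQLFit and glmQLFTest, R 4.3.3), TMM scaling and Benjamini-Hochberg adjustment over all genes of a comparison, two-sided, at 0.05. The 3013 genes past filterByExpr and the listed genes with counts gave 3088 genes. All 127 libraries entered 1 model of condition plus the replicate number as a block, and the slope used the 21 untransfected libraries. SE is the log2 fold change over the root of the F statistic. The number marks a shared pool. Deviations from condition means correlated at a median of 0.0981 within a number, 0.0579, 0.0861 and 0.220 in replicates 1, 2 and 3. Across numbers the median was -0.0685, a value that centring on condition means by itself pulls under 0. CPM values carry no p when summed over the 6 genes. limma 3.58.1 was fitted to the deposited log2 values, and DESeq2 1.42.0, RLE size factors, no filter, no block, the 2 conditions alone, Mock joined to nt and leaving out each replicate were the other alternatives. Contrasts of consecutive days were chosen after seeing the data.

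The members and gene lists were chosen with earlier results of these data known. The 6 members were always named, listed genes were named if they passed the test (at most 4 a list and comparison, by size), and the 5 genes most like the sum were taken by Pearson's r. The fit was tested on simulated data. Promoters came from the RefSeq table of GRCm38.p6, and gene positions from GENCODE vM21. Intervals of pooled counts are exact at 95% and cover counting error only. 1 listed gene is not reported here.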

Additional observations from a re-analysis of the deposited data

Results flagged for a closer look

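In the 5 Mock libraries Snai2 had 1, 1, 1, 1 and 0 counts, and the library at 0 CPM lay apart from the others by Dixon's criterion. That criterion is made for continuous values, and the gap here is that of 1 count, so that nothing is read from it. The library held 83089 counts, and a count of 0 allows up to 3.

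Prrx1 differed between the siRNAs against Wdr5 and Brca1, by 0.74 log2 units in the contrast of siWdr5 with siBrca1, and the difference was itself tested (edgeR adjusted p 0.0348, and 0.0649 to 0.311 on leaving out a replicate).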

How the results depend on the processing

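Of 139 recomputed counts of called members and summed levels, 111 stayed within 1.5 times the reported count or within 1 SD, 28 moved and 0 reversed. Calls against Day00, 13 as reported, came to 7 under limma on the deposited log2 values, 8 without the low-count filter and 8 to 9 on leaving out a replicate. The 4 slopes called came to 2 without any 1 replicate. The 3 calls in siWdr5, siBrca1 and siBard1 came to 1 under limma and to 2 to 3 without a replicate. The 2 calls among the other siRNAs came to 1 without the replicate block, 4 with RLE size factors, 5 with nt and Mock joined (2 of them lower, in siPou5f1), 0 under limma and 0 without the filter (33 and 27 of 180 at an unadjusted p under 0.05), and 0 to 1 without a replicate. The direct call between siWdr5 and siBrca1 came to 0 without the replicate block, under limma, without the filter and without any 1 replicate. The 3 calls between consecutive days came to 0 under limma, 1 without the filter and 1 to 2 without a replicate. The summed level on Day06 against Day00 was -1.34 on the log2 scale, -1.52 with RLE size factors and -1.40 to -1.30 without a replicate, and nt against Day06 was -0.61, and -0.90 per count of all genes. Without the replicate block no other count of calls moved by over 1.5 times. Removing a replicate leaves 2 libraries in most conditions, more in Mock, and 1 in siMtf1 where replicate 1 or 2 is removed. Removing the filter adds genes to the adjustment. Otherwise the cause was not tested.

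Changes that did not pass the test in either setting reversed as follows. The Twist1 slope, -0.04 per day, was 0.0215 under limma and -0.0825 to 0.0777 without a replicate. Twist1 in siBrca1, 0.36, was -1.09 with Mock joined to nt and -0.0092 to 0.42 without a replicate. Zeb2 had a slope of -0.03, -0.14 to 0.0679 without a replicate, and a Day06 change of -0.47, -0.92 to 0.14. Snai2 in siBrca1, 0.76, was -0.19 to 2.17. No called member reversed under any alternative run. RLE size factors moved the median of all genes by -0.14 on Day06 against Day00 (from 326 higher and 351 lower calls to 229 and 435) and by 0.16 in siWdr5 against nt (from 371 higher and 453 lower to 497 and 315). With a median of 1 count per library, depth limits Twist1 and Snai2 most.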
